A study of Mus musculus with 16 samples.

Results

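The DEAD and DEAH box RNA helicases of the neonatal mouse testis are described here, gene by gene, in germ cells and in 4 somatic cell types. The members were chosen by symbol, with earlier results of these data known. They were every gene of the count table whose name is Ddx or Dhx followed by a number, with the Y-linked Ddx3y left out. This gave 52 members (36 Ddx and 16 Dhx) of 30451 genes. The cells came from whole testes at postnatal day 2 (P2) of wild-type mice and of *Ddx5* conditional knockout mice, in which *Ddx5* flox/flox alleles are recombined by a Cre under the *Mvh* promoter, which is active in germ cells. *Mvh* is another name for *Ddx4*, itself a member. The study's *Oct4*-GFP transgene, which marks germ cells, was counted too (488 UMIs in the wild-type library and 22 in the other). The 16 labelled samples (8 for each genotype, each titled as a library) cannot be separated in the table. Each genotype was therefore treated as 1 library, and no test between them is possible. By the titles, some samples of each genotype shared a lane with the other genotype and the rest had a lane of their own. Lane and genotype are therefore partly confounded.

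RNA helicases of both families use ATP to unwind short RNA duplexes, to strip proteins from RNA or to clamp onto it, and they serve splicing, ribosome assembly, export, translation and decay of RNA. DDX5 (p68) and its closest relative DDX17 (p72) act in transcription, in splicing and in the processing of microRNA precursors, and they often work in the same complexes. In the male germline, DDX4 (also MVH, VASA) belongs to the granules in which transposon transcripts are silenced with small RNAs, and DDX25 is known as a regulator of mRNA storage and export in later spermatogenic cells. DDX43 is a germline helicase that is also made in many tumours. A P2 testis holds gonocytes, which have just resumed division, in cords of Sertoli cells, surrounded by peritubular myoid cells, Leydig cells and other stroma.

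Levels are given as CPM, the unique molecular identifiers (UMIs, 1 per captured mRNA) of a gene summed over the cells of a type, per 1000000 UMIs of those cells. Because a UMI is read near the 3′ end, a level does not grow with the length of the transcript. Cells had to show 2000 or more genes and no more than 10% of mitochondrial UMIs, which left 6329 in the wild-type library and 4950 in the library labelled *Ddx5* knockout, with medians of 11170 and 11668 UMIs. Of these, 124 and 12 were germ cells (a UMI of at least 3 of *Dazl*, *Mael*, *Stk31* and *Slc25a31*), 2256 and 1635 Sertoli cells (at least 3 *Amh* UMIs), 177 and 143 Leydig cells (at least 20 UMIs of *Cyp11a1*, *Cyp17a1* and *Hsd3b1*), 764 and 524 myoid cells (at least 5 *Acta2* and 2 *Myh11* UMIs), and 3590 and 3005 stromal cells (at least 1 *Pdgfra* UMI and at most 2 of *Amh*). A cell may meet more than 1 rule: 674 of the 764 wild-type myoid cells were stromal cells too, 38 of the 124 wild-type germ cells were Sertoli cells and 18 were stromal cells, and in the other library 0 and 4 (33.3%) of the 12 were. In both libraries, 5 germ markers that no rule used (*Sall4*, *Dnd1*, *Sycp3*, *Tdrd1*, *Rnf17*) were highest in the germ cells, with summed levels of 657 and 410 CPM against at most 29.1 and 14.6 CPM in a somatic type. The wild-type germ cells also held 703 CPM of 5 Sertoli markers, where Sertoli cells held 4238 CPM, and the germ cells of the knockout-labelled library held 30.2 CPM. For 5 stroma markers the order was the other way, with 343 CPM in wild-type and 557 CPM in knockout-labelled germ cells. Stromal cells held 7177 and 7310 CPM of them. The part of this unlike somatic RNA in the germ cell ratios between libraries was not tested. Intervals are 95% intervals (exact Poisson for a level, exact conditional binomial for a ratio, exact Clopper-Pearson for a share) and cover counting error only, not the spread between animals.

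Sequences that frame the results are the promoters of the 3 germline members, which were the most germ-enriched members in both libraries, and the oligonucleotides with which the study followed *Ddx5* and Cre. Promoters (RefSeq, GRCm38.p6, 250 bases before to 50 after the annotated start, in the direction of the gene) were on the minus strand of chromosome 13 for *Ddx4* (chr13:112652261-112652560), on the minus strand of chromosome 9 for *Ddx25* (chr9:35558421-35558720) and on its plus strand for *Ddx43* (chr9:78395527-78395826). Capitals mark CACGTG, the palindromic E-box bound by proteins of the MYC and MAX family.
*Ddx4*: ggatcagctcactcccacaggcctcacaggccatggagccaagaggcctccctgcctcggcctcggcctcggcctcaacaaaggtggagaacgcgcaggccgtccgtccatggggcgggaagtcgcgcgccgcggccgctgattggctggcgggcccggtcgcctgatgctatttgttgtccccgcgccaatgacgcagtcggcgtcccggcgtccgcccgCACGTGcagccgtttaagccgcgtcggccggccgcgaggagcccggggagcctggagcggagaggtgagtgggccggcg
*Ddx25*: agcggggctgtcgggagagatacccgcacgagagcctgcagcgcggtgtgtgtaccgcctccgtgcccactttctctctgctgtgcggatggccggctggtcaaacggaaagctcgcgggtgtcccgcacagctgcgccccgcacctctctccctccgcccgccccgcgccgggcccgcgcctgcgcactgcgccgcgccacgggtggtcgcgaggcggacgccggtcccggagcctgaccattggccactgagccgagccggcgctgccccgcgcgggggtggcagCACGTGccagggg
*Ddx43*: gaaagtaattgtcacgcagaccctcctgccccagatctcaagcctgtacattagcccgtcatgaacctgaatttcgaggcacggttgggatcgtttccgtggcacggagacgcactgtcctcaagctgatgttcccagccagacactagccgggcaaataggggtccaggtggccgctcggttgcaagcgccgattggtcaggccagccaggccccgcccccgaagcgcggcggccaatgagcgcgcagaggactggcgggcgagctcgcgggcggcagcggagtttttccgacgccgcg
The window of *Ddx4* held 1 CACGTG, 29 bases upstream of the start, and that of *Ddx25* held 1, 37 bases downstream, while these letters were not in the window of *Ddx43*. Of all 32851 windows 7.15% held the motif (searched on both strands at once, since it is its own reverse complement), and 7 (12.3%) of the 57 windows found for 46 of the members did. The 3 windows were rich in CG pairs, with 38, 41 and 30 of them, against a median of 7 over all windows and of 24 over the members' windows.

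The forward primer with which the study genotyped the *Mvh*-Cre transgene has 24 bases, CACGTGcagccgtttaagccgcgt, and all of them lie in the *Ddx4* window above (chr13:112652316-112652339), beginning with the E-box. It matched no other promoter window. The study's quantitative PCR primers for *Ddx5*, aggtcacaactgtccaaaacct and tcaagcgacaagctcgacaa, lie in exons 3 and 6 of the 13 exons of the main transcript (GENCODE vM21, GRCm38, gene at chr11:106780355-106788532, minus strand), at chr11:106786479-106786500 and chr11:106785455-106785474. They begin 3089 and 2774 bases from the 3′ end of the transcript, near which the UMIs are read. In the study's drawing of the allele the last exons lie outside the loxP sites. Whether *Ddx5* UMIs report recombination of the allele was not tested, and the library is called by its label throughout. CRE was counted as a separate gene, with 0 UMIs in the wild-type library and 20 in the knockout-labelled library, and 9 of the 12 germ cells of the latter held at least 1.

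The family made up a larger part of the mRNA in germ cells than in any somatic type. All members together had 6141 CPM in wild-type germ cells, against 4076 in Sertoli cells, 3337 in myoid cells, 3131 in stroma and 3020 in Leydig cells. In the knockout-labelled library the order was the same, with 6282 CPM in germ cells and 3941, 3256, 3030 and 2956 CPM in the somatic types. *Ddx5* alone gave 18.8% of the members' UMIs in wild-type germ cells and 27.6% in those of the knockout-labelled library, and between 18.7% and 23.4% in the somatic types. Without *Ddx5* the family total was 4988 CPM in wild-type germ cells and 4546 CPM in the others. At least 1 UMI of all 52 members was found in wild-type germ cells, and of 48 in the 12 germ cells of the knockout-labelled library.

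**Figure D1:**
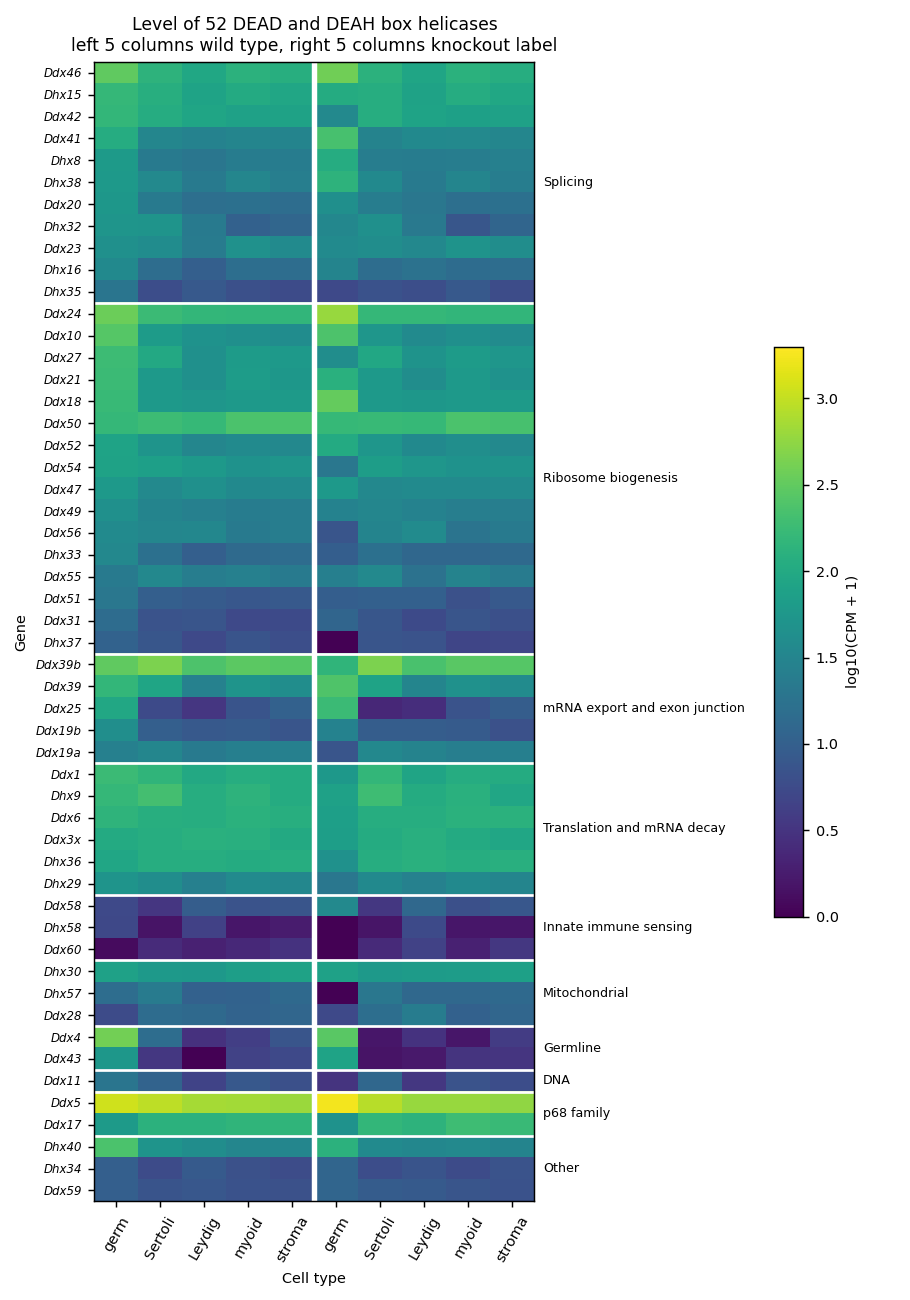
Level of each of the 52 members (rows, grouped by role) in 5 cell types of both libraries (columns), as log10(CPM + 1) by colour, with no error shown. *Ddx5* is the brightest row in every column, and *Ddx4*, *Ddx25* and *Ddx43* are bright mainly in the germ columns.

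Summed over all cells of the 5 types, the 5 members with the most UMIs were *Ddx5* (757 CPM), *Ddx39b* (349 CPM), *Ddx50* (199 CPM), *Ddx24* (162 CPM) and *Ddx17* (146 CPM). *Ddx39b* (UAP56) couples splicing to mRNA export, and *Ddx50* and *Ddx24* act in the nucleolus. *Ddx5* had 109894 UMIs, 21.3% of all members' UMIs, and was the most abundant member in each of the 10 columns of the heat map of levels. The 5 members with the fewest UMIs were *Dhx34* (5.19 CPM), *Ddx58* (4.73 CPM), *Ddx43* (3.60 CPM), *Ddx60* (1.84 CPM) and *Dhx58* (0.772 CPM). *Ddx58* encodes RIG-I, a sensor of viral RNA, and *Dhx58* and *Ddx60* are antiviral genes too. Members of this low group were read from few UMIs in small cell types.

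*Ddx5* and its paralog *Ddx17* had opposite orders across the cell types of the wild-type library. *Ddx5* was highest in germ cells, with 1153 CPM (interval 1121 to 1186) in the wild-type library, then 936 CPM in Sertoli cells, 706 in Leydig cells, 704 in myoid cells and 634 in stroma. The intervals of Leydig and myoid cells overlapped and the others did not. *Ddx17* was lowest in germ cells, with 61.4 CPM (54.2 to 69.2), against 130 CPM in Sertoli cells, 132 in Leydig cells, 144 in myoid cells and 145 in stroma. The *Ddx17* level of stroma did not overlap that of Sertoli cells (142 to 149 and 127 to 134 CPM), while those of Leydig and myoid cells overlapped their neighbours. In wild-type germ cells *Ddx5* was 1.497 times (1.45 to 1.54) and *Ddx17* 0.440 times (0.388 to 0.497) its level in the pooled somatic cells, which are the cells of any somatic rule that do not meet the germ rule.

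The number of *Ddx5* UMIs per *Ddx17* UMI therefore separated germ cells from each somatic type in both libraries. In the wild-type library it was 18.8 (16.6 to 21.3) in germ cells, 7.18 in Sertoli cells, 5.34 in Leydig cells, 4.90 in myoid cells and 4.36 (4.24 to 4.49) in stroma. In the knockout-labelled library it was 36.5 (24.0 to 58.6) in germ cells, from 804 and 22 UMIs, and 5.86, 4.504, 3.33 and 3.34 in the same somatic types. The ratio in germ cells was 3.40 times (3.0 to 3.86) that of pooled somatic cells in the wild-type library and 8.29 times (5.42 to 12.7) in the other. When barcodes that meet more than 1 rule were left out, the wild-type value was 4.62, and with limits of 3000 or more genes and 5% or less mitochondrial UMIs, which left 44 germ cells, it was 2.89. The last exon of *Ddx17* (chr15:79527736-79546741, minus strand) overlaps *Kdelr3* on the other strand, and whether counting used the strand is not given in the sources used here.

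**Figure D2:**
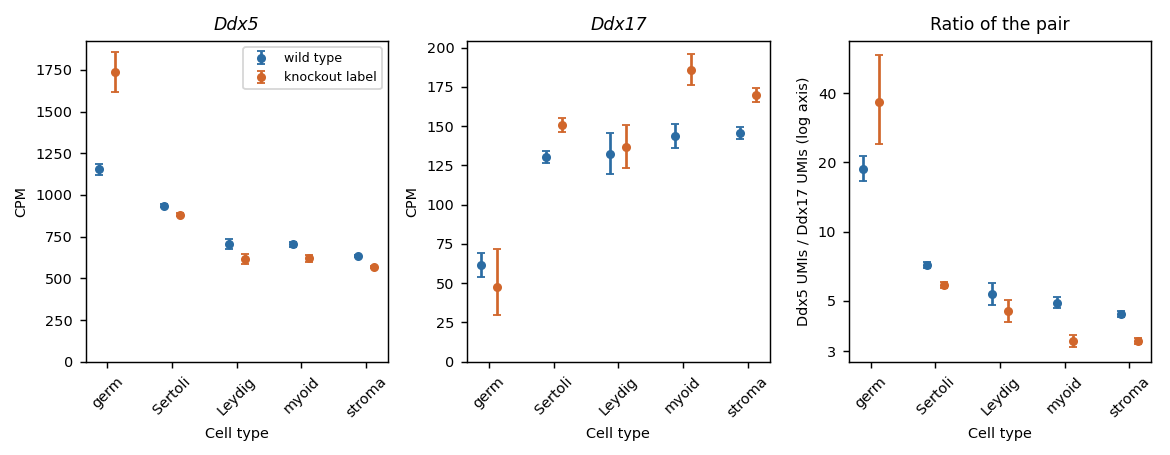
*Ddx5* level, *Ddx17* level (both CPM, axes from 0) and the ratio of their UMIs (log axis) in 5 cell types, with wild type in blue, knockout label in orange and bars for 95% counting intervals. *Ddx5* is highest and *Ddx17* lowest in germ cells of both libraries, and the ratio is 18.8 and 36.5 there against at most 7.18 in a somatic type.

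At equal depth the same contrast was seen in the share of cells of the wild-type library. After each cell was thinned to 5000 UMIs, which left out 2 wild-type germ cells and at most 66 cells of any somatic type as too shallow, *Ddx5* had a UMI in 122 of 122 wild-type germ cells and in 94.5% to 98.2% of the cells of each wild-type somatic type (98.6% to 100% before thinning). *Ddx17* had a UMI in 27.0% (19.4% to 35.8%) of wild-type germ cells after thinning and in 71.8% before, against 44.1% to 50.7% of the somatic types after thinning and 74.5% to 81.9% before. In the 12 germ cells of the knockout-labelled library *Ddx17* had a UMI in 25% (5.49% to 57.2%) after thinning, against 52.1% to 60.3% of its somatic types. *Ddx5* had a UMI in 11 of these 12 cells (91.7%, 61.5% to 99.8%) after thinning. Its share was 91.6% to 98.3% in the somatic types of that library, so the contrast of *Ddx5* was not seen there.

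The knockout-labelled library had the higher *Ddx5* level of the 2 in germ cells and the lower one in each somatic type, and for *Ddx17* the values lay the other way. *Ddx5* had 1153 CPM in wild-type and 1736 CPM (1618 to 1860) in knockout-labelled germ cells, a ratio of 1.51 (1.40 to 1.62). The study's single-cell quantitative PCR on sorted *Oct4*-GFP-positive gonocytes ran the other way, with *Ddx5* mRNA strongly decreased in the knockout. The study describes its own sequencing as giving the same direction, from germ cells filtered by GFP and CRE counts. What lies behind this difference was not tested. In somatic types the ratio of *Ddx5* was 0.943 in Sertoli cells, 0.896 in stroma, 0.879 in myoid cells and 0.873 in Leydig cells, all with intervals below 1. *Ddx17* had 61.4 and 47.5 CPM (29.8 to 71.9) in germ cells, a ratio of 0.774 (0.477 to 1.20) whose interval holds 1. In somatic types *Ddx17* was higher, with ratios of 1.16 (1.11 to 1.20) in Sertoli cells, 1.17 (1.13 to 1.21) in stroma, 1.29 (1.20 to 1.39) in myoid cells and 1.03 (0.898 to 1.19) in Leydig cells, the last with an interval that holds 1. The *Ddx5* to *Ddx17* ratio of the knockout-labelled library was 1.94 times (1.25 to 3.02) the wild-type one in germ cells and 0.798 times (0.775 to 0.822) in pooled somatic cells. In germ cells all of these ratios stand against a median log2 ratio of -0.62 over the 12379 genes with at least 20 UMIs, and relative to that median *Ddx5* was 1.21 and *Ddx17* 0.25 on the log2 scale, so that the direction of *Ddx17* turned.

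Single germ cells showed how these sums arose. *Ddx5* was found in every germ cell of both libraries, with a lowest, median and highest level of 196, 1150 and 2208 CPM in the 124 wild-type cells and 550, 1748 and 2189 CPM in the 12 others. The libraries overlapped over most of this range, and 11 of the 12 cells lay above the wild-type median. The 9 cells with a CRE UMI together had 1833 CPM (1694 to 1981) of *Ddx5*, and the 3 without had 1439 CPM (1228 to 1676). Of these 3 cells 2 met the stromal rule too, with 7 and 4 *Pdgfra* UMIs, and the other was the shallowest of the 12, with 12717 UMIs and none of *Ddx4*. The part of stromal RNA and depth in this difference was not tested. *Ddx17* had a median of 49.6 CPM in wild-type cells, with 35 cells at 0, and 44.9 CPM in the others, with 4 cells at 0. *Ddx4* had a median of 372 CPM (0 to 1011) in wild-type cells and 285 CPM (0 to 533) in the others, with overlapping ranges, and the sums gave 391 and 287 CPM, a ratio of 0.735 (0.611 to 0.877). Relative to the median of all genes the *Ddx4* ratio was 0.18 on the log2 scale, the other direction.

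**Figure D3:**
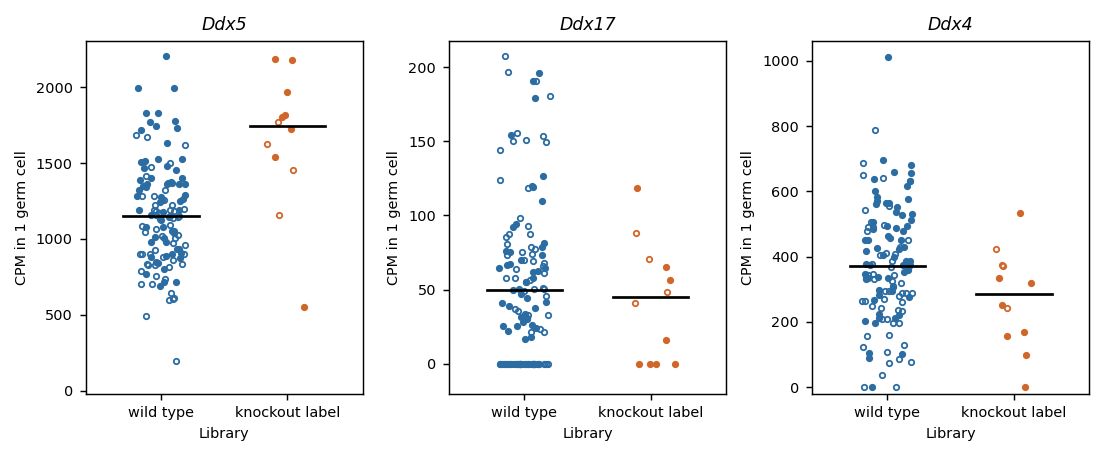
*Ddx5*, *Ddx17* and *Ddx4* level (CPM) of each of the 124 wild-type and 12 knockout-labelled germ cells, with a black line at the median, filled points for cells that meet the germ rule alone and open points for cells that meet another rule too. The *Ddx5* medians are 1150 and 1748 CPM with overlapping ranges, and the points at 0 in the *Ddx17* panel are 35 and 4 cells.

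In the wild-type library 24 of the 52 members were at least 2-fold higher in germ cells than in pooled somatic cells, where 27.3% of the 18264 genes with at least 20 UMIs were, and 3 were at least 2-fold lower, where 19.2% of genes were. All 52 members passed the minimum of 20 UMIs. Their median log2 ratio was 0.79, against 0.13 over all genes, and 41 members (78.8%) were above 1, where 53.9% of all genes were. In the knockout-labelled library, with 12 germ cells, 19 members were at least 2-fold higher and 11 at least 2-fold lower, where 23.4% and 28.2% of genes were. Their median log2 ratio there was 0.057, against 0 over all genes, and 28 members (53.8%) were above 1, where 37.7% of all genes were. A gene with 0 UMIs on one side was set to 3 UMIs there and was never counted as the higher side. Among members this applied to *Dhx37*, *Dhx57*, *Dhx58* and *Ddx60* in the 12 cells, of which *Dhx57* was past 2-fold, lower. The share of UMIs from ribosomal protein genes was 16.4% in germ and 20.4% in somatic cells of the wild-type library, and 34.1% and 20.8% in the other. Totals without these UMIs gave counts of members within 1.5 times the ones above for the wild-type library.

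**Figure D4:**
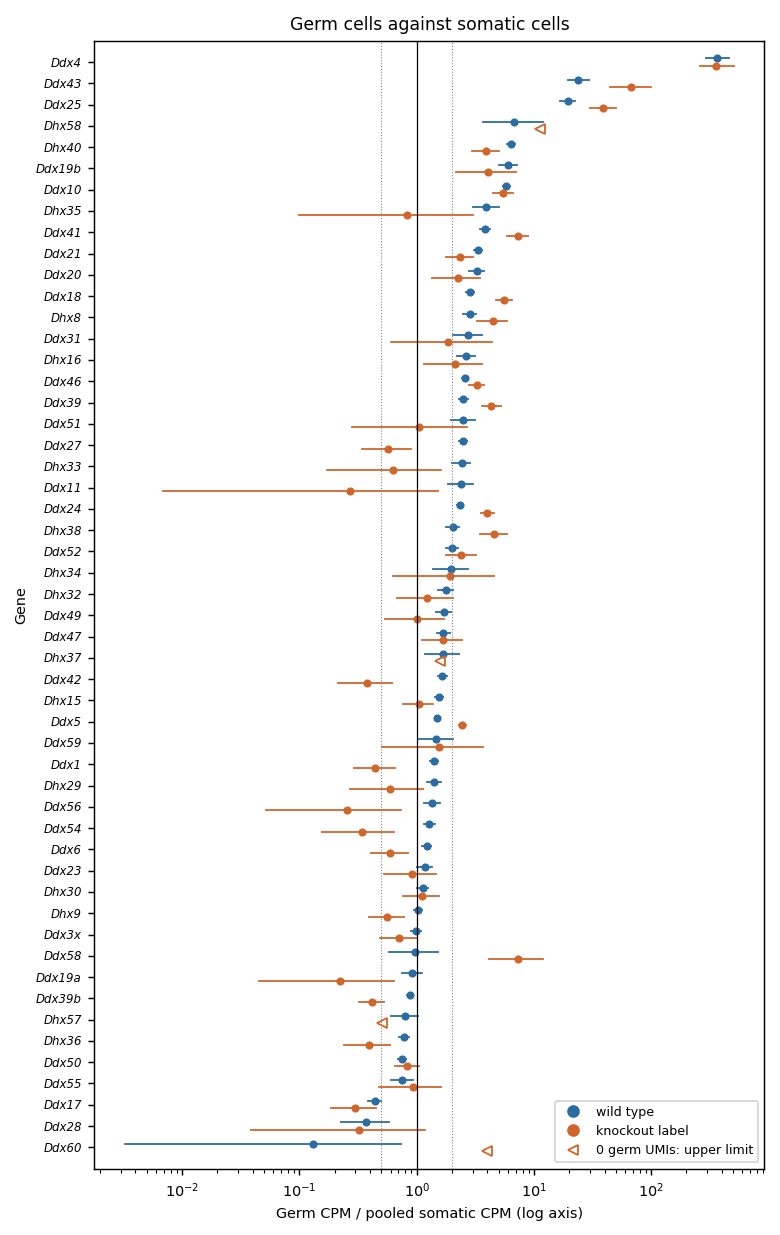
Ratio of the germ to the pooled somatic level (CPM over CPM, log axis) of 52 members in the wild-type (blue) and the knockout-labelled library (orange), with 95% counting intervals, dotted lines at 2-fold, and open triangles for the upper limit of members with 0 germ UMIs. *Ddx4*, *Ddx43* and *Ddx25* lie farthest to the right in both libraries, and *Ddx17* lies to the left of 1 in both.

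The 3 germline members were the farthest from 1. *Ddx4* had 391 CPM in germ cells and 1.07 CPM in somatic cells of the wild-type library, a ratio of 364 (291 to 460), and 287 and 0.797 CPM in the other, a ratio of 360 (259 to 508). *Ddx43* (chr9:78395777-78423587, plus strand) had 54.2 and 2.27 CPM, a ratio of 23.9 (19.5 to 29.3), and 82.0 and 1.22 CPM, a ratio of 67.3 (44.4 to 100.4). *Ddx25* (chr9:35536647-35558528, minus strand) had 94.4 and 4.87 CPM, a ratio of 19.4 (16.8 to 22.4), and 179 and 4.58 CPM, a ratio of 39.1 (30.3 to 50.1). Thinned to 5000 UMIs, 85.2% of wild-type germ cells held a *Ddx4* UMI, 41.0% a *Ddx25* UMI and 26.2% a *Ddx43* UMI, against 97.6%, 87.1% and 72.6% before thinning. Of the cells that met only the Sertoli rule, 0.278%, 0.464% and 0.278% held these UMIs at that depth, a share taken here as the background level. Where these UMIs came from was not tested.

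Among cells that did not meet the germ rule, *Ddx25* and *Ddx43* had a level in stroma above that in Sertoli cells, with intervals apart. For *Ddx4* the intervals overlapped, so a difference stays undecided. In wild-type cells that did not meet the germ rule, *Ddx25* had 8.39 CPM (7.50 to 9.35) in stroma and 1.24 CPM (0.904 to 1.67) in Sertoli cells, and in the knockout-labelled library 7.55 CPM (6.64 to 8.55) and 1.35 CPM (0.958 to 1.84). *Ddx43* had 3.92 CPM (3.32 to 4.60) and 0.566 CPM (0.345 to 0.873) in the wild-type library, and 1.94 CPM (1.49 to 2.48) and 0.484 CPM (0.264 to 0.812) in the other. *Ddx4* had 1.14 CPM (0.830 to 1.53) and 0.990 CPM (0.689 to 1.38), and 1.0 CPM (0.689 to 1.40) and 0.587 CPM (0.342 to 0.940), with overlapping intervals in both libraries. Thinned, 4.26% of the wild-type cells that met the stromal rule alone held a *Ddx25* UMI (119 of 2796), against 0.464% of those that met the Sertoli rule alone (10 of 2157). Wild-type stromal and Sertoli cells had medians of 9839 and 13711 UMIs before thinning.

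All 11 helicases listed for splicing were above 1 in the wild-type library and 7 were at least 2-fold higher, with a median log2 ratio of 1.38, where 53.9% of all genes were above 1, 27.3% were at least 2-fold higher and the median was 0.13. Of the same 11, in the knockout-labelled library, 8 were above 1, 6 at least 2-fold higher and 1 at least 2-fold lower, with a median of 1.09. Of all genes in that library 37.7% were above 1, 23.4% at least 2-fold higher and 28.2% at least 2-fold lower, with a median of 0. *Ddx41*, which acts in the spliceosome and also senses DNA, had 109 and 28.7 CPM, a ratio of 3.81 (3.44 to 4.21). *Dhx35*, a spliceosome component, had 18.1 and 4.61 CPM, a ratio of 3.93 (3.04 to 5.04). *Ddx20* (gemin 3), a part of the SMN complex that loads Sm proteins on small nuclear RNAs, had 55.1 and 16.9 CPM, a ratio of 3.26 (2.82 to 3.74). The paralogs *Dhx15* and *Dhx16*, of which the former takes spliceosomes apart and the latter remodels them before catalysis, were 1.55 times (1.43 to 1.68) and 2.64 times (2.22 to 3.13) as high in germ cells.

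Of the 16 helicases of ribosome biogenesis 14 were above 1 and 9 at least 2-fold higher, with a median log2 ratio of 1.12, beside the same 53.9%, 27.3% and 0.13 over all genes. Of these 16, in the knockout-labelled library, 9 were above 1, 5 were at least 2-fold higher and 2 at least 2-fold lower, where 37.7%, 23.4% and 28.2% of all genes were. Their median was 0.031, close to the all-gene median of 0. *Ddx10*, needed for the small ribosomal subunit, had 269 CPM in germ cells and 46.3 CPM in somatic cells, a ratio of 5.81 (5.43 to 6.21). *Ddx21*, which links transcription and processing of ribosomal RNA, had 179 and 53.8 CPM, a ratio of 3.33 (3.08 to 3.60), while its paralog *Ddx50*, named for its high sum of UMIs, had 156 and 207 CPM, a ratio of 0.755 (0.698 to 0.816). *Ddx18*, a factor of the large subunit, had 167 and 58.7 CPM, a ratio of 2.84 (2.63 to 3.08). *Dhx40*, whose role is little known, had 230 and 36.2 CPM, a ratio of 6.35 (5.90 to 6.84).

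Of the 5 helicases listed for mRNA export, *Ddx25* among them, 3 were at least 2-fold higher (27.3% of all genes were). In the knockout-labelled library 3 were at least 2-fold higher and 2 at least 2-fold lower, where 23.4% and 28.2% of all genes were. In the wild-type library the members of both paralog pairs had ratios whose intervals did not overlap. *Ddx19b* had 41.8 and 6.98 CPM, a ratio of 5.99 (5.03 to 7.11), and its near-identical paralog *Ddx19a* had 26.7 and 29.1 CPM, a ratio of 0.920 (0.756 to 1.11). Counting can drop or split reads that such a pair shares, so both values are uncertain. *Ddx39* had 150 and 60.1 CPM, a ratio of 2.50 (2.30 to 2.72), and *Ddx39b* had 309 and 354 CPM, a ratio of 0.872 (0.825 to 0.922). Of the 6 helicases of translation and decay none was past 2-fold in either direction, where 46.5% of all genes were, and *Ddx6* and *Ddx3x*, in stress granules and in translation initiation, had ratios of 1.22 (1.12 to 1.33) and 0.986 (0.895 to 1.08). None of the 6 was above 1 in the knockout-labelled library and 2 were at least 2-fold lower, with a median log2 ratio of -0.80. Of all genes in that library 37.7% were above 1 and 28.2% at least 2-fold lower, with a median of 0.

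Members at least 2-fold lower in wild-type germ cells were *Ddx17*, *Ddx28* and *Ddx60*. *Ddx28*, which assembles the mitochondrial ribosome, had 4.65 and 12.5 CPM, from 20 germ UMIs, a ratio of 0.373 (0.227 to 0.579), and *Ddx60* had 1 germ UMI, a ratio of 0.130 (0.00326 to 0.734). *Dhx58* had 18 germ UMIs, with 4.18 and 0.616 CPM, a ratio of 6.80 (3.71 to 11.9). With somatic types weighted alike, its log2 ratio was 1.69 in place of 2.76, and its germ level overlapped that of wild-type Leydig cells (3.32 CPM, 1.59 to 6.11). With the stricter limits on genes and mitochondrial UMIs none of the 3 lower members stayed past 2-fold. The mean of the germ cells' own CPM, and somatic types weighted alike, gave counts of members past 2-fold within 1.5 times the ones above. Weighted alike, with cells of the germ rule kept in the somatic types, *Ddx4* had a log2 ratio of 5.92 in place of 8.51.

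The helicases outside the symbol rule were listed as a comparison. Of 19 such genes 11 were at least 2-fold higher in wild-type germ cells and 1 was at least 2-fold lower, where 27.3% and 19.2% of all genes were, with a median log2 ratio of 1.06. In the knockout-labelled library 8 were higher and 4 lower, where 23.4% and 28.2% were, with a median of 0.77. Both microRNA partners of *Ddx5* were above 1, with *Drosha* at 148 and 25.2 CPM, a ratio of 5.88 (5.36 to 6.43), and *Dgcr8* at 32.3 and 27.6 CPM, a ratio of 1.17 (0.979 to 1.39).

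Of the 50 members with at least 20 UMIs in germ cells, 4 were at least 2-fold higher and 14 at least 2-fold lower in the knockout-labelled library. Of the 12379 genes with as many UMIs 9.65% were at least 2-fold higher and 38.7% at least 2-fold lower, so that the members' shares (8% and 28%) lay below those of all genes on both sides. The median log2 ratio was -0.41 over the members and -0.62 over all genes. The 12 germ cells held 463254 UMIs in all, against 4302521 in the 124 wild-type cells, with median depths of 34528 and 34564 UMIs per cell and mitochondrial shares of 2.51% and 5.62%. Ratios divided by the median of all genes gave 10 members higher and 9 lower, and totals without ribosomal protein genes gave 8 higher. When only the 8 and 67 cells that meet the germ rule alone were compared, none was at least 2-fold higher.

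*Ddx58* (RIG-I) had the largest ratio among the members that passed the minimum. It had 4.42 CPM in wild-type germ cells, from 19 UMIs, and 34.5 CPM in the others, from 16 UMIs, a ratio of 7.82 (3.76 to 16.1). In somatic types its level stayed between 2.35 and 12.2 CPM in both libraries. *Dhx38*, which remodels the spliceosome between the catalytic steps, had 59.0 and 134 CPM, a ratio of 2.27 (1.69 to 3.00). *Ddx41* had 109 and 220 CPM, a ratio of 2.02 (1.61 to 2.50). *Ddx18* had 167 and 335 CPM, a ratio of 2.00 (1.67 to 2.38), at the edge of the 2-fold limit. The single cells overlapped for each of the latter 3: *Dhx38* had a lowest, median and highest level of 0, 54.1 and 281 CPM in wild-type cells and 71.8, 130 and 247 CPM in the others, and *Ddx18* had 0, 152 and 666 CPM and 178, 327 and 626 CPM. *Ddx41* had 0, 94.4 and 361 CPM and 0, 203 and 944 CPM.

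Of the 14 lower members, *Ddx27*, a factor of ribosomal RNA processing, had 183 CPM in wild-type and 41.0 CPM in knockout-labelled germ cells, a ratio of 0.224 (0.134 to 0.353), with single cells from 0 to 594 CPM (median 171) and from 0 to 88.3 CPM (median 38.3). *Ddx42*, a splicing factor that binds the U2 particle, had 152 and 34.5 CPM, a ratio of 0.228 (0.129 to 0.372), with medians of 136 and 40.2 CPM. *Ddx1*, which acts in tRNA ligation and RNA transport, had 174 and 56.1 CPM, a ratio of 0.322 (0.209 to 0.476), with medians of 169 and 52.1 CPM. The ranges of the cells overlapped for all 3 members.

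*Ddx54* and *Ddx56*, both of the nucleolus, had ratios of 0.248 (0.112 to 0.477) and 0.173 (0.0353 to 0.515), the latter from 3 UMIs in the 12 cells. *Ddx39b* had 309 and 145 CPM, a ratio of 0.469 (0.361 to 0.599), while its paralog *Ddx39* had 150 and 248 CPM, a ratio of 1.65 (1.34 to 2.02). *Dhx33*, *Dhx9* and *Ddx11* had ratios of 0.254 (0.0684 to 0.666), 0.482 (0.333 to 0.677) and 0.121 (0.00302 to 0.692), from 4, 35 and 1 UMIs in the 12 cells. *Dhx57* had 0 UMIs in the 12 cells and 13.9 CPM in wild-type cells, which makes it at least 2.15-fold lower with 3 UMIs over the 12 cells taken as the floor. The interval of its ratio reaches 0.589, within 2-fold, and 4 of its 11 alternatives kept it past 2-fold, so its place among the 14 rests on that floor. By role the counts are read against the 9.65% of genes that were at least 2-fold higher, the 38.7% that were lower and the all-gene median log2 ratio of -0.62. Of the 16 helicases of ribosome biogenesis 1 was at least 2-fold higher and 5 lower, with a median of -0.44, and of the 11 splicing helicases 2 and 2, with a median of -0.27, so that neither list was lower than genes in general. Of the 6 of translation and decay (*Ddx3x*, *Ddx6*, *Dhx29*, *Dhx36*, *Dhx9* and *Ddx1*) 0 were higher and 3 lower, with a median of -1.02. None of the 6 was above 1, where 29.4% of all genes were. The 3 lower ones were *Ddx1*, *Dhx9* and *Dhx29*, of which *Ddx1* is described above by tRNA ligation and RNA transport. Under each alternative that gave a value, *Ddx58*, *Ddx27*, *Ddx42*, *Ddx1*, *Ddx54*, *Ddx56*, *Dhx33*, *Ddx11*, *Ddx19a* and *Dhx35* stayed past 2-fold in the same direction, although *Ddx19a*, *Dhx35* and *Ddx11* were read from 3, 2 and 1 UMIs in the 12 cells and *Ddx58* had fewer than 20 UMIs in the cells that meet the germ rule alone.

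The ratios of the germline members were within 2-fold in germ cells. *Ddx25* had 94.4 and 179 CPM, a ratio of 1.90 (1.48 to 2.41), and *Ddx43* had 54.2 and 82.0 CPM, a ratio of 1.51 (1.05 to 2.14), beside 0.735 for *Ddx4*. With ratios divided by the median of all genes *Ddx25* and *Ddx43* were past 2-fold, at 1.55 and 1.22 on the log2 scale. Of the 19 helicases outside the symbol rule 2 were at least 2-fold higher and 6 lower, with a median log2 ratio of -0.48, near the shares and the median of all genes. Of the microRNA partners, *Drosha* had 148 and 38.9 CPM, a ratio of 0.262 (0.154 to 0.418), and *Dgcr8* had 32.3 and 13.0 CPM, a ratio of 0.401 (0.145 to 0.895), from 18 and 6 UMIs in the 12 cells.

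**Figure D5:**
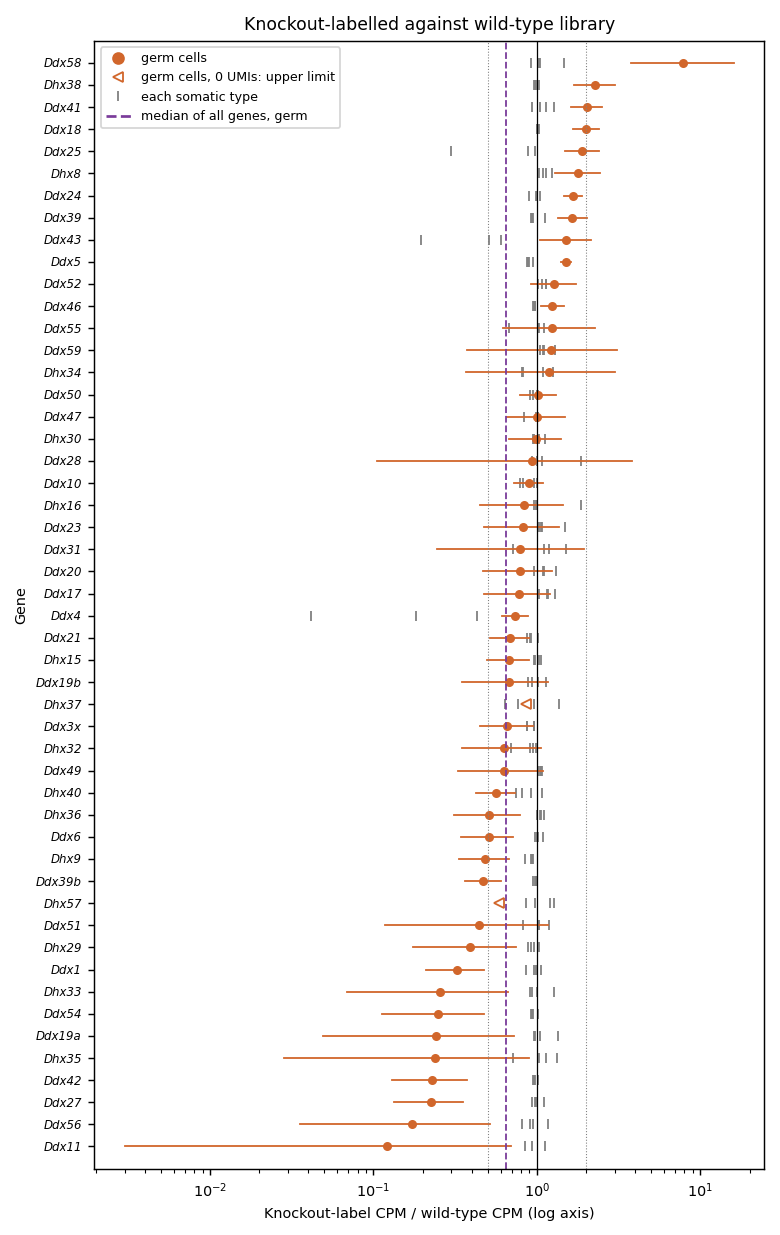
Ratio of the knockout-labelled to the wild-type level (CPM over CPM, log axis) of 50 members in germ cells (orange, with 95% counting intervals), with grey ticks for each somatic type, dotted lines at 2-fold and a dashed line at the median of all genes in germ cells. *Ddx58* lies farthest to the right at 7.82, the 14 lower members lie left of the left dotted line except *Dhx57*, which is drawn as an open triangle at the upper limit of its interval, and most somatic ticks lie near 1.

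In somatic cells few members differed by 1.5-fold or more between the libraries. In Sertoli cells 3 of 52 members did, where 12.4% of genes did, all 3 of them germline members lower in the knockout-labelled library. *Ddx4* had 14.1 and 0.587 CPM in Sertoli cells, *Ddx43* 2.46 and 0.484 CPM, and *Ddx25* 4.49 and 1.35 CPM. In the wild-type library 487 of the 522 *Ddx4* UMIs of Sertoli cells came from the 38 cells that met the germ rule too, and the 2218 others had 0.990 CPM. With cells of 1 rule alone the log2 ratio of *Ddx25* was 0.056 and that of *Ddx43* -0.08 in Sertoli cells, and that of *Ddx4* -0.67. In stroma 2 of 52 members did, where 9.57% of genes did: *Ddx4* had 6.52 and 2.80 CPM and *Ddx43* 4.41 and 2.23 CPM, a ratio of 0.506 (0.380 to 0.668) for the latter. In the wild-type library 210 of the 254 stromal *Ddx4* UMIs came from the 18 cells that met the germ rule too, and without such cells *Ddx4* had 1.14 and 1.0 CPM, within 1.5-fold, and *Ddx43* 3.92 and 1.94 CPM.

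In myoid cells 4 of the 51 members that passed the minimum differed by 1.5-fold, where 8.97% of genes did. *Ddx4* had 3.09 and 0.562 CPM, a ratio of 0.182 (0.0466 to 0.514), and *Ddx43*, *Dhx37* and *Ddx31* had ratios of 0.604, 0.636 and 1.51 with intervals that hold 1. In Leydig cells 2 of 47 members did, where 11.5% of genes did. *Ddx28* had 12.6 and 23.7 CPM, a ratio of 1.87 (1.24 to 2.87), and *Dhx16* had 8.97 and 16.7 CPM, a ratio of 1.86 (1.14 to 3.104). Erythroid markers (*Hba-a1* and *Hbb-bt*) had 0.664 and 333 CPM in Leydig cells, 19.5 and 353 CPM in myoid cells, 14.0 and 323 CPM in stroma and 36.6 and 94.8 CPM in Sertoli cells of the wild-type and the knockout-labelled library, and their part in these ratios was not tested.

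Sertoli cells are the dividing somatic cells of the neonatal cord, and 890 wild-type and 726 knockout-labelled Sertoli cells held at least 3 UMIs of *Mki67* and *Top2a*, against 981 and 661 with 0. *Ddx11*, a helicase of sister chromatid cohesion and DNA replication, was the member that was at least 1.5-fold higher in cycling cells of both libraries, of 49 with enough UMIs in both, where 6.31% of genes were. It had 6.40 CPM in non-cycling and 13.6 CPM in cycling wild-type cells, a ratio of 2.12 (1.64 to 2.76), and 5.23 and 15.6 CPM in the other library, a ratio of 2.99 (2.20 to 4.14). None of the 49 was at least 1.5-fold lower in both, where 1.94% of genes were. *Ddx39*, chosen after its values were seen, had ratios of 1.45 (1.34 to 1.58) and 1.51 (1.37 to 1.66), on both sides of the limit. Germline members moved with the cycling split in the wild-type library, where *Ddx4* had 22.5 CPM in cycling and 2.64 CPM in non-cycling Sertoli cells and 26 of the 890 cycling cells met the germ rule, against 0 of 726 in the other library. Without the cells of the germ rule *Ddx4* had 1.37 and 0.645 CPM and *Ddx11* had a wild-type ratio of 2.06 (1.59 to 2.70). Cycling cells were deeper, with medians of 18506 and 20372 UMIs against 11747 and 13452, and the part of depth in these ratios was not tested.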

How the data were processed

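The authors counted UMIs of Chromium 3′ v3 libraries with Cell Ranger 3.1.0 on GRCm38, with GFP and CRE added, and deposited 1 table of raw UMI counts of 30451 genes. Its barcodes carry suffix 3 (6763, read as the wild-type library) or 4 (5423, the knockout label), an order that fits the cell numbers left by the filter the study describes. The members, lists, rule for naming genes and alternatives were chosen with earlier results of these data known.

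UMIs were summed per library and type. Doublets (314 and 319, Scrublet in scanpy 1.11.5) and the 12 barcode sequences found in both libraries, none of a germ cell, were kept. Ratios used genes with at least 20 UMIs. Genes were named past 2-fold (germ cells) or 1.5-fold (somatic and cycling cells), at most 12 per direction for germ against somatic cells and at most 10 for germ cells of the libraries (where the interval also had to leave out 1), by the interval farthest from 1, besides *Ddx5*, *Ddx17*, *Ddx4*, paralog pairs and the 5 highest and 5 lowest members. Others stand as members of a list. With 1 library per genotype no test was run. Ratios and intervals were tested on simulated Poisson counts, which hold no spread between cells or animals. Annotation came from GENCODE vM21, where a gene of the other strand overlaps the last exon of 6 members (*Ddx17*, *Ddx28*, *Ddx39*, *Ddx49*, *Ddx54*, *Dhx32*), and promoters came from RefSeq. Python 3.11.15, NumPy 2.4.6 and SciPy 1.17.1 were used.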

Additional observations from a re-analysis of the deposited data

Results flagged for a closer look

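With 1 library for each genotype none of these differences could be tested. *Ddx5* had a ratio of the knockout-labelled to the wild-type level of 1.51 in germ cells and of 0.873 to 0.943 in the 4 somatic types, which is the opposite direction in all 4. The study's quantitative PCR found *Ddx5* mRNA decreased in knockout gonocytes, unlike the germ ratio here. *Ddx17* had 0.774 in germ cells and 1.03 to 1.29 in the somatic types, and its direction in germ cells turned when ratios were divided by the median of all genes. The ratio of *Ddx5* to *Ddx17* UMIs was 1.94 times the wild-type one in germ cells and 0.680 to 0.844 times in the somatic types. Of the 46 members with at least 20 UMIs in all 5 types, 6 (13.0%) had a germ ratio opposite to all 4 somatic ratios, and 11.6% of the 9949 genes with as many UMIs did.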

How the results depend on the processing

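No paired analysis was possible because the barcodes carry no sample number, and for the same reason no replicate could be left out. Of the 27 members past 2-fold between wild-type germ and somatic cells, 20 stayed so under all alternatives that gave a value, and 10 of the 18 between the libraries' germ cells did. Members at least 2-fold higher in knockout-labelled germ cells (4) numbered 0 with cells of 1 rule, 2 without doublets, 2 with all 4 germ markers, 8 without ribosomal protein UMIs and 10 with ratios divided by the all-gene median, where 9 were lower in place of 14. With stricter limits (3000 or more genes, 5% or less mitochondrial UMIs), 0 members were 2-fold lower in wild-type germ than somatic cells in place of 3. The germ over somatic *Ddx5* to *Ddx17* ratio (3.40) was 4.62 with cells of 1 rule, 2.89 with the stricter limits and 3.98 as a mean over cells. In Leydig cells the members past 1.5-fold (2) numbered 5 with cells of 1 rule, 4 without doublets, 6 with the stricter limits, 7 as a mean over cells and 4 with no minimum. In stroma (2) there was 1 with cells of 1 rule and 1 with the stricter limits, and in myoid cells (4) there were 2 without doublets. With no minimum, 3 members were higher in cycling Sertoli cells of both libraries in place of 1. Directions also turned for *Ddx4* (0.18) and *Ddx17* (0.25) in germ cells of the libraries with ratios divided by that median, for *Ddx25* in Sertoli cells with cells of 1 rule (0.056), and for *Ddx17* in Leydig cells with the stricter limits (-0.20), all on the log2 scale. The causes were not tested. Leaving out Sertoli cells that meet the germ rule, added after the data were seen, gave the same counts for cycling cells. Other alternatives added after the data were seen, with the 9 CRE-positive germ cells alone or without the deepest of the 12, gave counts within 1.5 times and *Ddx5* log2 ratios of 0.67 and 0.58. The 12 germ cells of the knockout-labelled library limit the depth: 3 UMIs are 6.48 CPM there.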

Other observations

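Sertoli cells were the highest somatic type in both libraries for 26 of the 52 members (50%), where they were for 25.7% of the 17037 genes with at least 20 UMIs in both. Leydig cells were for 5 members, stroma for 4 and myoid cells for 3, where they were for 21.3%, 15.9% and 13.3% of genes. The members named here were chosen after their values were seen. *Dhx32*, a DEAH box protein counted with the splicing helicases here although its role is little known, had 49.5 CPM in wild-type Sertoli cells, 21.9 in Leydig cells, 11.2 in stroma and 9.57 in myoid cells, and 44.95, 20.9, 11.0 and 6.60 CPM in the other library. Its ratio of Sertoli to stromal cells was 4.41 (3.97 to 4.91) and 4.07 (3.62 to 4.59). *Ddx39*, an mRNA export factor, had a Sertoli to stroma ratio of 2.14 (2.01 to 2.27) and 2.18 (2.04 to 2.34), and *Dhx9* (RNA helicase A) of 1.95 (1.88 to 2.03) and 2.12 (2.03 to 2.22).

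*Dhx58* and *Ddx58*, of the RIG-I family, had their highest somatic level in Leydig cells of both libraries. *Dhx58* had 3.32 CPM (1.59 to 6.11) there in the wild-type library, from 10 UMIs, above stroma (0.770 CPM, 0.519 to 1.10), myoid cells (0.598, 0.219 to 1.30) and Sertoli cells (0.487, 0.289 to 0.770). In the other library it had 4.52 CPM (2.41 to 7.73) in Leydig cells and from 0.518 to 0.603 CPM in the other 3 types. *Ddx58* had 8.30 CPM (5.37 to 12.3) in wild-type Leydig cells, an interval that overlapped those of stroma (6.52, 5.74 to 7.37) and myoid cells (5.98, 4.56 to 7.70), while Sertoli cells had 2.35 CPM. In the other library *Ddx58* had 12.2 CPM (8.48 to 16.9), against 6.79 (5.93 to 7.73), 5.48 (3.89 to 7.49) and 2.42 CPM. Macrophage markers had summed levels of 67.4 and 173 CPM in Leydig cells and of 18.8 and 15.4 CPM in Sertoli cells, and their part in this was not tested.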
